A study of Homo sapiens with 3 samples.

Results

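The 9 genes described here are nuclear receptors, among them those through which tamoxifen and steroid hormones can act, with the coregulators that nuclear receptors recruit. They were taken by symbol from a table of 51136 genes: the estrogen receptors ESR1 and ESR2, the progesterone receptor PGR, the estrogen-related receptor ESRRA, the coactivators NCOA1, NCOA2 and NCOA3, and the corepressors NCOR1 and NRIP1. All 9 symbols were in the table, and 6 of them had at least 10 reads in a library. The samples were PANC-1 cells, an established human line from a pancreatic ductal carcinoma, in 3 RNA-seq libraries made from total RNA. The control library came from cells with no agent, 1 library from cells given 200 μM ginsenoside Rg3 (Rg3) for 24 h, and 1 from cells given 50 μM tamoxifen (TAM) for 24 h. All cells were grown in serum-containing medium, and no vehicle is named for the control cells.

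Estrogen receptors are ligand-activated transcription factors that bind DNA at estrogen response elements and turn on genes such as PGR, TFF1 and GREB1. Hormone binding moves a helix of the receptor so that coactivators of the NCOA family dock and bring in the acetyltransferases EP300 and CREBBP. TAM, an antiestrogen, holds that helix in another position and favors corepressors of the NCOR family, which bring in histone deacetylases. ESRRA resembles the estrogen receptors in sequence but works without estrogen and drives genes of mitochondrial energy metabolism. NRIP1 (also called RIP140) binds hormone-occupied receptors and lowers their activity, and in breast cells it is itself switched on by estrogen.

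Promoters of 3 of the genes are shown because NCOA3 and NCOR1 were called lower with TAM and ESRRA was called higher, while none of the 3 was called with Rg3. Each stretch is from RefSeq on GRCh38.p14, covers 250 bases before to 50 after the annotated start, reads 5′ to 3′ on the strand of the gene, and has its CpG dinucleotides in capitals. The window of NCOA3 is chr20:47501637-47501936 (plus strand), that of NCOR1 is chr17:16215485-16215784 (minus strand) and that of ESRRA is chr11:64305274-64305573 (plus strand).
NCOA3: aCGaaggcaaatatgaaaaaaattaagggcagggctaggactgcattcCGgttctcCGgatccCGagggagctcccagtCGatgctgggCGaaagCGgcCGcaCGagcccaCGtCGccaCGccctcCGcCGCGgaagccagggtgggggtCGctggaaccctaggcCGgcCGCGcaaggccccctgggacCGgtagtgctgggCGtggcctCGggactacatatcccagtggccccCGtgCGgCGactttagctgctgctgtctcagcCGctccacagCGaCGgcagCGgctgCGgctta
NCOR1: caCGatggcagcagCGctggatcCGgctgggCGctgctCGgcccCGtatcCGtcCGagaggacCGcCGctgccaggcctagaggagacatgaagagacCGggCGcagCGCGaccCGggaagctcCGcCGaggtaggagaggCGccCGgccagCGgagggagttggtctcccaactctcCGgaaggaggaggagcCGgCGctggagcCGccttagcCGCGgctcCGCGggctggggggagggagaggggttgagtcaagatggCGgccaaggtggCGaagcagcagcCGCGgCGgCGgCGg
ESRRA: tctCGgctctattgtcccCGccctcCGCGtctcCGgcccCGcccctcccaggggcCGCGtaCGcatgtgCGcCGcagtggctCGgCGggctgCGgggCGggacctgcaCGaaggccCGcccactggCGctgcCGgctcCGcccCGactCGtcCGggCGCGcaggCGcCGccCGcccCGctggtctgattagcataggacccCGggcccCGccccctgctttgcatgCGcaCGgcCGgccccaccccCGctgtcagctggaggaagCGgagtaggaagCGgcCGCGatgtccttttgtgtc

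These windows have a GC content of 66.7% for NCOA3, 72.7% for NCOR1 and 75.0% for ESRRA, with 30, 35 and 39 CpG dinucleotides. Over all 35116 promoter windows of the table, the median was 58.7% GC and 14 CpG. The windows of all 3 genes were thus above the median in both measures, while their transcripts differed widely in base composition, as given below. Promoter windows were found for 8 of the 9 genes, with 1 to 6 annotated starts each, and NCOR1 has a second start whose window holds 26.3% GC and no CpG. The full estrogen response element, spelled GGTCA, any 3 bases and TGACC and searched on both strands, was in none of the windows of these 8 genes and in 0.057% of all windows. The response element of ESRRA, spelled TCAAGGTCA, was likewise in none of them and in 0.353% of all windows. The single arm AGGTCA of these elements, which lies inside the ESRRA element, was in windows of ESR2 alone among the 8 genes and in 13.8% of all windows.

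The receptors for estrogen and progesterone were not detected. ESR1, the receptor for which TAM is prescribed, had 0 reads in the control, Rg3 and TAM libraries. PGR, a gene that ESR1 induces, also had 0 reads in all 3. ESR2 had 1 read in the control, 0 with Rg3 and 2 with TAM. The libraries held 11300766 reads counted on genes in the control, 12861693 with Rg3 and 11321442 with TAM. Levels are in CPM (reads per 1000000, with library sizes scaled by edgeR's TMM factors) per kilobase of transcript. For ESR1, 3 reads, the floor used here for low counts, are 0.0404 in the control, 0.0322 with Rg3 and 0.0466 with TAM. The exact 95% interval of its count of 0 reached higher, to 0.0497, 0.0396 and 0.0573. For PGR, whose transcript is longer, the floor is 0.019, 0.0152 and 0.0219 CPM per kilobase. The interval of PGR reached 0.0234, 0.0186 and 0.027. No difference in these 3 receptors was detectable at this depth, and no fold change was taken. The relatives ESRRB (2, 1 and 0 reads) and ESRRG (1, 5 and 4 reads) were under 10 reads in every library as well.

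The identity of the cells was checked on marker genes. KRT8 and KRT18, keratins of simple epithelium, had 7406 to 15329 reads in each library, and VIM, an intermediate filament gene active in this line, had 39783 to 55276. KRT7 had 248 reads in the control, 93 with Rg3 and 345 with TAM, and KRT19 had 665, 290 and 181. On the log2 scale KRT19 was lower with Rg3 (-1.52) and with TAM (-1.67). KRT7 was lower with Rg3 (-1.74) and higher with TAM (0.68). Summed over 6 markers of the line, the reads ranged from 55415 with Rg3 to 82760 in the control, and EPCAM was low, with 26 reads in the control, 26 with Rg3 and 8 with TAM. Of these 6 markers 5 were called lower with Rg3, beside 15.6% of all genes compared. Their median log2 fold change with Rg3 was -1.11, beside 0.04 over all genes. With TAM 1 was called higher and 2 lower, beside 13.7% and 18.1% of all genes. The part of these markers in the changes given below was not tested. Of 7 markers of leukocytes, endothelium, acinar cells and islets, 5 were at 0 in every library, and the summed count was 1 in each. With bulk RNA, fewer cells of a type and less RNA per cell cannot be told apart.

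ESRRA was the most abundant of the 9 genes per unit of length, and the order of the 6 detected genes was the same in each library. In the control library ESRRA stood at 22.9 CPM per kilobase (exact 95% interval 21.1 to 24.8), higher than 79.7% of the genes with at least 10 reads. NCOR1, the corepressor that carries the deacetylase HDAC3, followed at 11.0 (10.4 to 11.6). The NCOA genes lay close together, NCOA1 at 1.82 (1.55 to 2.13), NCOA3 at 1.76 (1.49 to 2.05) and NCOA2 at 1.48 (1.25 to 1.75), and their intervals overlapped, so that these neighbors could not be ordered in the control library. NRIP1 was lowest at 0.295 (0.193 to 0.433), above only 2.6% of genes with at least 10 reads. In Rg3-treated cells the levels were 18.6 for ESRRA, 13.3 for NCOR1, 3.34 for NCOA1, 2.51 for NCOA3, 1.88 for NCOA2 and 0.679 for NRIP1, and no intervals of neighbors overlapped. With TAM they were 35.8, 4.79, 1.13, 0.911, 0.488 and 0.196 in the same order, with overlap only between NCOA1 and NCOA3. These intervals cover counting error only, and the lengths are those of the longest GENCODE 29 transcript.

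**Figure D1:**
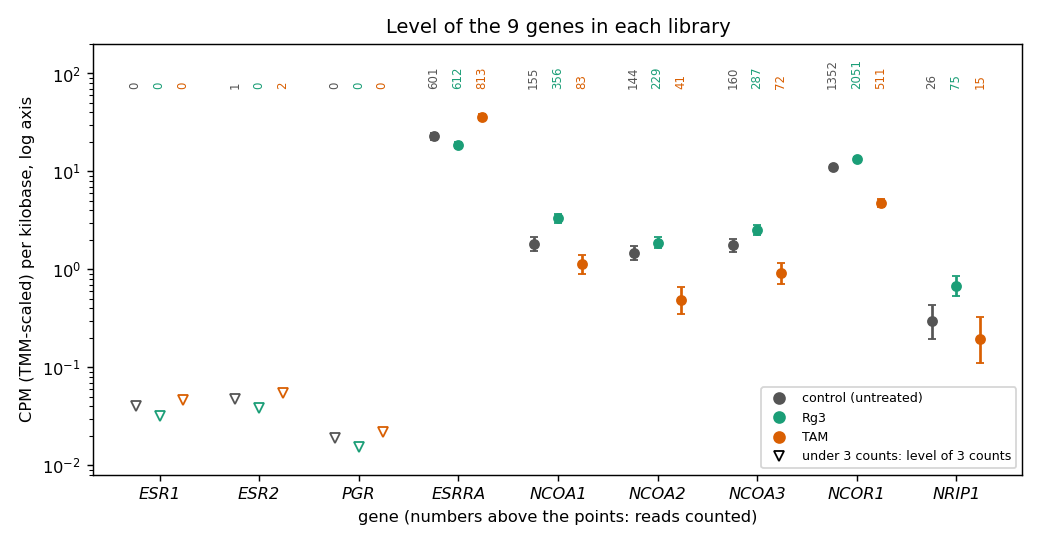
Level of each gene in the control, Rg3 and TAM libraries, as TMM-scaled CPM per kilobase of the longest transcript on a log axis, with exact 95% counting intervals and the reads counted printed above. ESR1, ESR2 and PGR are shown as open triangles at the level of 3 reads, while ESRRA lies between 18.6 and 35.8 and NRIP1 between 0.196 and 0.679.

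In GENCODE 29 on GRCh38, the build that the submitters' processing notes name, ESRRA lies at chr11:64305572-64316743 on the plus strand, and 18.31% of the 50-base stretches of its transcript recur elsewhere, chiefly in TRMT112, whose exons overlap it on the opposite strand. TRMT112 had 3257, 3016 and 3322 reads in the control, Rg3 and TAM libraries, and the use of strand in counting is not given in the sources used here, so that reads of ESRRA and TRMT112 may be mixed. NRIP1 lies at chr21:14961235-15065936 on the minus strand and shares 6.64% of its stretches with 2 overlapping noncoding genes. NCOR1, at chr17:16029157-16218185 on the minus strand, shares 0.83% with its pseudogenes and other loci, and its pseudogene rows held at most 2 reads. NCOA1 (chr2:24491914-24770702) and NCOA2 share no stretch, and NCOA3 (chr20:47501902-47656877) shares 0.66%.

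Comparisons were made of the Rg3 and the TAM library with the control and of TAM with Rg3, over genes with at least 10 reads in either library. A gene was called changed when its fold after TMM scaling was over 1.5 or under 0.67, the limits of the study's methods, and its exact binomial p, adjusted by Benjamini and Hochberg over all genes compared, was under 0.05. Since each condition had a single library, replicate error is unknown: the test compares libraries, not conditions, and its intervals hold no variation between cultures.

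With Rg3, NCOA1 and NRIP1 rose, no member fell, and the other 4 genes compared did not reach the fold limit. The 2 of 6 genes called higher stand beside 20.2% of all 16487 genes compared, and the 0 called lower beside 15.6%. NRIP1 went from 26 reads to 75, 2.3-fold or 1.20 on the log2 scale (95% interval 0.54 to 1.90, exact binomial adjusted p = 0.00041). NCOA1, a coactivator of steroid receptors also called SRC-1, went from 155 reads to 356, with a log2 fold change of 0.87 (0.60 to 1.15, exact adjusted p = 4.88e-10). NCOA3, known as AIB1 for its amplification in breast cancer, had 160 and 287 reads and a log2 fold change of 0.52 (0.23 to 0.80), which was 1.43-fold and under the limit. NCOA2, called TIF2 or GRIP1, had 144 and 229 reads (0.34, 0.04 to 0.65), and NCOR1 had 1352 and 2051 (0.27, 0.17 to 0.37). ESRRA had 601 and 612 reads and a log2 fold change of -0.30 (-0.47 to -0.14). All 5 coregulators were thus above the control on this scale and ESRRA below it. Division by library totals added 0.14 to every log2 fold change, so that 3 members, NCOA3 (0.66) among them, were called higher. Over all genes that division moved the split from 3328 higher and 2564 lower to 4315 and 1719. A variation of 0.2 assumed between cultures left 64 higher and 92 lower. Where a variation between cultures of 0.2 was assumed (edgeR's exact test), neither call held, with an adjusted p of 0.297 for NCOA1 and 0.234 for NRIP1.

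With TAM, NCOR1 and the coactivators NCOA1, NCOA2 and NCOA3 fell, and ESRRA rose. The 4 of 6 genes called lower stand beside 18.1% of the 16079 genes compared, and the 1 called higher beside 13.7%. NCOR1 had 1352 reads in the control and 511 with TAM and fell by 1.20 on the log2 scale (-1.35 to -1.05, exact adjusted p = 7.84e-62). NCOA2 had the largest change among the members by point value, from 144 reads to 41. Its log2 fold change was -1.61 (-2.14 to -1.10, exact binomial adjusted p = 7.04e-11), or 0.328-fold. That interval overlapped those of NCOR1, NCOA3 and NRIP1, so that NCOA2 could not be ranked apart from them. NCOA3 went from 160 reads to 72 (-0.95, -1.37 to -0.54) and NCOA1 from 155 to 83 (-0.69, -1.10 to -0.30). NRIP1, with 26 and 15 reads, had a log2 fold change of -0.59 (-1.61 to 0.38, exact adjusted p = 0.362), an interval that spans no change. ESRRA went from 601 reads to 813, 1.56-fold or 0.64 on the log2 scale (0.49 to 0.80, exact adjusted p = 7.39e-16). Library totals lowered every log2 fold change by 0.21, so that ESRRA (0.43) was no longer called and the split of members was 0 higher and 4 lower. Over all genes the split moved from 2210 higher and 2908 lower to 1120 and 4190. An assumed variation of 0.2 between cultures left 109 higher and 365 lower. With an assumed variation of 0.2, NCOA2 alone of the members kept its call (adjusted p = 0.0424, edgeR's exact test), NCOR1 stood at 0.0962, NCOA3 at 0.296, ESRRA at 0.455 and NCOA1 at 0.467, and with 0.4 no member was called.

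Set directly against each other, the TAM library was lower than the Rg3 library in all 5 coregulators and higher in ESRRA. These 5 stand beside 30.6% of 16493 genes called lower in this comparison, and ESRRA beside 26.8% called higher. Among genes of like GC content these shares were other than over all genes and are given below. The log2 fold changes were -1.95 for NCOA2 (-2.47 to -1.46), -1.79 for NRIP1 (-2.70 to -0.98), -1.57 for NCOA1 (-1.93 to -1.22), -1.47 for NCOR1 (-1.61 to -1.33) and -1.46 for NCOA3 (-1.86 to -1.08). ESRRA was 0.94 higher (0.79 to 1.10). The sign was the same with library totals and with size factors from DESeq2. All 5 coregulators kept their calls with an assumed variation of 0.2, with adjusted p from 0.000901 for NCOA2 to 0.0124 for NRIP1 (edgeR's exact test), and ESRRA, at 0.0721, did not; with 0.4 no member was called. With 0.2, 2939 of all 16493 genes were called lower and 2156 higher in this comparison, so that kept calls were common over all genes. The comparison uses the same libraries as those with the control and is no independent support for them. Over all genes library totals moved the split from 4428 higher and 5053 lower to 2687 and 6675.

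**Figure D2:**
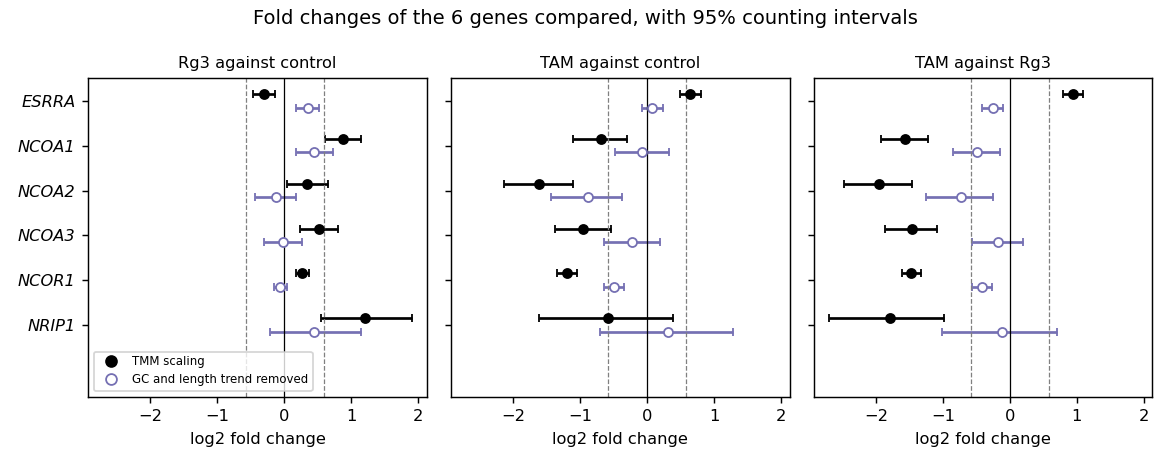
Log2 fold change (x axis) of the 6 genes compared in each pair of libraries, with exact 95% counting intervals; filled points use TMM scaling, open points have a smooth trend on GC content and transcript length removed, and dashed lines mark 1.5-fold and 0.67-fold. The filled points of the 5 coregulators lie right of 0 with Rg3 and left of 0 with TAM, and the open points lie nearer to 0 than the filled ones in every case but ESRRA with Rg3 (0.35 against -0.30).

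The base composition of the transcripts moved with these changes. Across all genes compared that have a GC value, the log2 fold change had a Spearman's rho with GC content of -0.75 for Rg3 (14793 genes) and 0.44 for TAM (14513 genes), as a description of genes that are not independent. NRIP1 (38.8% GC), NCOA3 (42.6%), NCOA2 (43.4%), NCOA1 (44.0%) and NCOR1 (45.2%) were poor in GC, and ESRRA (63.2%) was rich. Among genes with 40 to 45% GC, which hold NCOA1, NCOA2 and NCOA3, 39.3% were called higher with Rg3 and 29.5% lower with TAM. Among genes with 60 to 65% GC, which hold ESRRA, 48.7% were called lower with Rg3 and 31.6% higher with TAM. In the band of 35 to 40%, which holds NRIP1, 66.2% were called higher with Rg3 and 40.7% lower with TAM. For 45 to 50%, which holds NCOR1, these shares were 11.9% and 17.1%. Every member thus lay on the side of 0 where the median of the genes in its own GC band lay, in both treated libraries. For TAM against Rg3 the rho with GC content was 0.73. In that comparison 78.9% of genes with 35 to 40% GC were called lower. The share was 59.1% for 40 to 45% GC and 29.5% for 45 to 50%. Of genes with 60 to 65% GC, 72.5% were called higher.

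With a smooth trend (loess) on GC content and length removed, NCOA2 with TAM was the only member still called, at -0.89 (-1.43 to -0.38). NCOR1 with TAM was -0.50 (-0.64 to -0.35), an interval below 0, with a point value that did not reach the fold limit. NCOA3 (-0.22, -0.64 to 0.19) and NCOA1 (-0.08, -0.48 to 0.32) with TAM had intervals that span 0, as had ESRRA (0.08, -0.08 to 0.23) and NRIP1 (0.31, -0.71 to 1.28). With Rg3, NCOA1 (0.44, 0.17 to 0.73) stayed above 0, and ESRRA (0.35, 0.18 to 0.51) was above 0 in place of below it. NRIP1 (0.44, -0.22 to 1.15), NCOA2 (-0.13, -0.44 to 0.18), NCOA3 (-0.02, -0.30 to 0.27) and NCOR1 (-0.06, -0.16 to 0.04) with Rg3 spanned 0. In the TAM library against the Rg3 library, NCOA2 (-0.73) was again the only member called, beside 2201 of 14781 genes called lower. ESRRA took the other sign there (-0.25, -0.41 to -0.10).

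**Figure D3:**
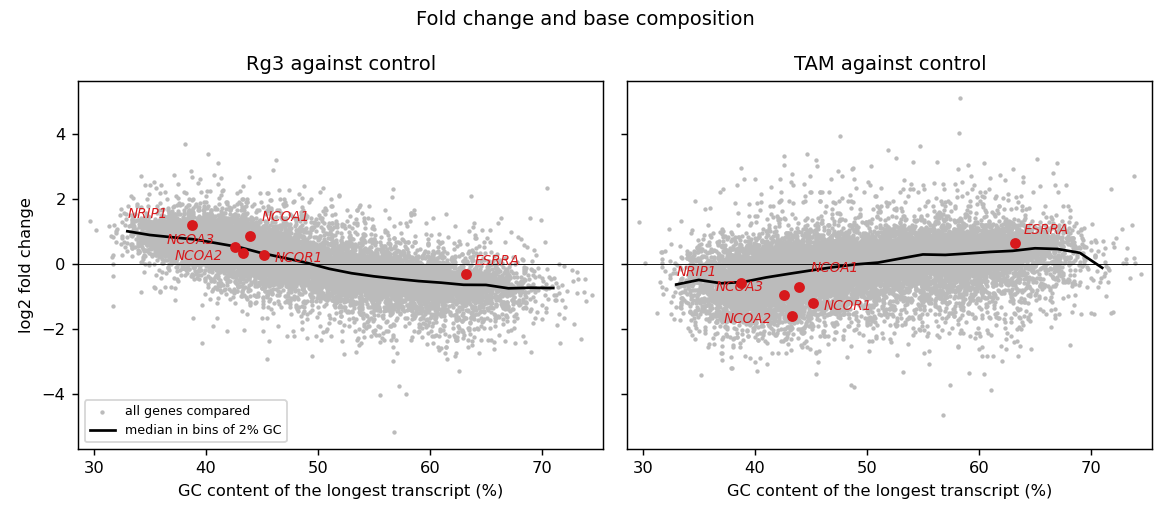
Log2 fold change against the GC content of the longest transcript for all genes compared (grey), with the median in bins of 2% GC (line, bins of at least 20 genes) and the 6 detected members (red), for Rg3 (left) and TAM (right) against the control. The line falls with GC for Rg3 and rises for TAM except in the last bins, and NRIP1 at 38.8% GC and ESRRA at 63.2% lie on opposite sides of 0 in both panels.

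Ratios between members within 1 library do not depend on the scaling of library sizes. The 3 coactivators together took 25.3% of the reads that fell on them and NCOR1 in the control (exact 95% interval 23.4 to 27.4), 29.8% with Rg3 (28.2 to 31.5) and 27.7% with TAM (24.5 to 31.2). The coactivator share was therefore higher with Rg3 than in the control beyond counting error, while the TAM interval overlapped both. NCOA1 alone was 10.3% of the reads of NCOA1 and NCOR1 in the control (8.8 to 11.9), 14.8% with Rg3 (13.4 to 16.3) and 14.0% with TAM (11.3 to 17.0). NCOA2 stood at 9.63% in the control, 10.0% with Rg3 and 7.43% with TAM, and NCOA3 at 10.6%, 12.3% and 12.3%, all with overlapping intervals. NRIP1 was 1.89% of the reads of NRIP1 and NCOR1 in the control (1.24 to 2.75), 3.53% with Rg3 (2.78 to 4.4) and 2.85% with TAM (1.6 to 4.66), so that the Rg3 and control shares were apart and the TAM share overlapped both. ESRRA rose from 24.7% of the reads on the 6 detected members in the control to 53.0% with TAM, and was 17.0% with Rg3. These shares still hold the difference in GC content between ESRRA and the other members: with the trend removed, the log2 fold changes with TAM were 0.08 for ESRRA and -0.50 for NCOR1, in place of 0.64 and -1.20. The shares against NCOR1 also hold differences in GC content and length. With the trend removed, NCOR1 with Rg3 was -0.06 in place of 0.27, and NRIP1 was 0.44 (-0.22 to 1.15) in place of 1.20. NCOA1 was then 0.44, NCOA2 -0.13 and NCOA3 -0.02, in place of 0.87, 0.34 and 0.52.

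Other genes of the pathway were read from 6 lists, each of other genes with a known role beside these receptors. Among 17 other coactivators, 4 were called higher and 3 lower with Rg3, beside 20.2% and 15.6% of all genes, and the median log2 fold change was 0.15 beside 0.04 over all genes. Both counts are near the shares over all genes and are no result about the list. The 4 were NCOA4 (746 reads in the control, 1896 with Rg3, log2 fold change 1.02), NCOA7 (0.98), the acetyltransferase gene KAT2B (1.07) and PPARGC1A (8 and 28 reads, 1.48), the partner through which ESRRA acts on mitochondrial genes. PRMT1 (-0.71), an arginine methyltransferase gene, PELP1 (-0.71) and the chromatin remodeler gene SMARCA4 (-0.64) were lower. With TAM, 6 of the 16 compared were lower and 2 higher, beside 18.1% and 13.7% of all genes, with a median of -0.35 beside -0.02 over all genes. MED1, the Mediator subunit that contacts nuclear receptors, fell from 603 reads to 191 (-1.45, -1.69 to -1.22), EP300 from 747 to 293 (-1.14) and CREBBP from 714 to 371 (-0.74). PPARGC1B (-1.30), NCOA7 (-1.04) and NCOA6 (-0.68) were lower too, and PRMT1 (0.74) and SRA1 (0.71) were higher. After removal of the GC and length trend, MED1 (-1.06), EP300 (-0.78) and PPARGC1B (-0.83) were the 3 coactivators still called lower with TAM, and KAT2B (0.67) was the 1 still called higher with Rg3. With an assumed variation of 0.2, MED1 was the only one of these coactivators called (adjusted p = 0.0387, edgeR's exact test).

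Of 14 other corepressors, 12 were compared. With Rg3, HDAC2 (0.72) and LCOR (1.26) were higher, and 2 were lower, CTBP1 (-0.68) among them; these counts are near the 20.2% and 15.6% of all genes called higher and lower. With TAM, LCOR, a ligand-dependent corepressor gene, fell from 75 reads to 15 (-2.12, -3.02 to -1.30), SIN3A (-0.89) and TBL1XR1 (-0.80) were lower, and GPS2 (0.62) was higher. These 3 lower and 1 higher stand beside 18.1% and 13.7% of all genes. LCOR kept its call in both libraries after removal of the trend, at 0.77 with Rg3 and -1.20 with TAM. With an assumed variation of 0.2 it was called with TAM (adjusted p = 0.0171, edgeR's exact test) and not with Rg3 (0.154). HDAC2, a transcript of 38.2% GC, took the other sign (-0.06) with Rg3.

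The membrane estrogen receptor GPER1 stood apart from the nuclear receptors. GPER1 encodes a G protein-coupled receptor that binds estradiol and for which TAM is described as an agonist. It had 16 reads in the control, 13 with Rg3 and 86 with TAM, or 0.469, 0.304 and 2.91 CPM per kilobase. It was 2.63 higher on the log2 scale with TAM (1.85 to 3.50, exact adjusted p = 3.13e-14), and 3.26 higher in the TAM than in the Rg3 library (2.41 to 4.23). The difference between the Rg3 and the control library was -0.63 (-1.80 to 0.52). At 61.0% GC it lies where TAM folds were high, but with the trend removed its change with TAM was still 2.19. Its call held with an assumed variation of 0.2 (adjusted p = 0.00117, edgeR's exact test) and not with 0.4. GPER1 lies at chr7:1082208-1093815 on the plus strand, and no stretch of 50 bases of its transcript recurs in another gene. Of the other receptors on this list, 4 were under 10 reads in every library, the glucocorticoid receptor gene NR3C1 was higher with Rg3 (0.70) and lower with TAM (-0.77), and RXRA was lower with Rg3 (-0.87) and higher with TAM (0.61). The changes of NR3C1 took the other sign with the trend removed, at -0.04 and 0.09. Those of RXRA kept their sign, at -0.31 and 0.49, and neither was still called.

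Of 15 genes that estrogen induces in breast cells, 4 were under 10 reads in every library. TFF1 had 2 reads in each library, GREB1 had 3, 4 and 3, PDZK1 had 1, 1 and 0, and CXCL12 had 0 in each. With Rg3, 3 of the 11 compared were lower, IGFBP4 (11728 and 3431 reads, -2.10), CTSD (-0.82) and RARA (-0.75), and 0 were higher, beside 15.6% and 20.2% of all genes. With TAM, 4 of 10 were higher and 0 lower, beside 13.7% and 18.1% of all genes. These were STC2, a secreted glycoprotein gene also raised by endoplasmic reticulum stress, from 3304 to 7351 reads (1.36, 1.30 to 1.42), CA12 from 18 to 38 (1.28), XBP1 from 327 to 497 (0.81) and CTSD from 10132 to 14975 (0.77). CTSD shares 60.56% of its stretches with overlapping annotated genes. With the trend removed, STC2 (1.47), CA12 (1.56) and XBP1 (1.02) kept their calls with TAM, and IGFBP4 (-1.47) kept its call with Rg3. With an assumed variation of 0.2, STC2 with TAM (adjusted p = 0.0447, edgeR's exact test) and IGFBP4 with Rg3 (0.000574) were the targets still called.

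Of 7 genes that ESRRA drives in mitochondrial metabolism, 3 were higher with Rg3, ACADM (0.79), IDH3A (0.62) and CYCS (0.89), and 2 were lower with TAM, ACADM (-0.96) and PDK4 (27 and 5 reads, -2.23), while ESRRA itself was higher there. These shares stand beside 20.2% of all genes higher with Rg3 and 18.1% lower with TAM. With the GC and length trend removed, 0 of the 7 were called higher with Rg3, while ACADM (-0.67) and PDK4 (-1.75) kept their calls with TAM. The medians were 0.28 with Rg3 and -0.16 with TAM, and 0.16 and 0.11 with the trend removed. Of 5 transcription factors that bind DNA beside ESR1 in breast cells, GATA3 (30 reads and then 14, -1.43), TFAP2A (-0.85) and TFAP2C (-0.90) were lower with Rg3, 3 of the 4 compared beside 15.6% of all genes. TFAP2A (-0.78) and TFAP2C (298 and 108 reads, -1.26) were also lower with TAM, 2 of 3 beside 18.1%. These TFAP2 changes were nearly the same with the trend removed, at -0.85 and -0.80 with Rg3 and -0.76 and -1.39 with TAM. GATA3 with Rg3 was then -1.12 (-2.15 to -0.16) and no longer called. None of the calls of this list held with an assumed variation of 0.2. FOXA1, the factor that opens chromatin for ESR1, was picked out after its values were seen and had 3 reads in the control, 13 with Rg3 and 3 with TAM.

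**Figure D4:**
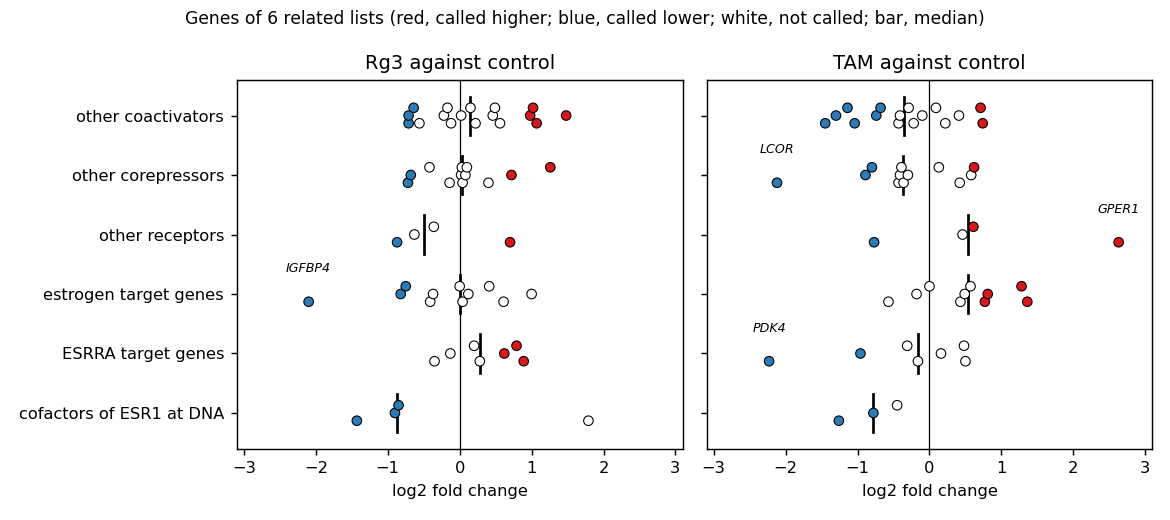
Log2 fold change (x axis) of every compared gene of the 6 lists, 1 point per gene, for Rg3 (left) and TAM (right) against the control; red points were called higher, blue points lower and white points not called, and bars are medians. Names are printed for points beyond 2 in either direction, which are IGFBP4 (-2.10) with Rg3 and GPER1 (2.63), LCOR (-2.12) and PDK4 (-2.23) with TAM.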

How the data were processed

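PANC-1 cells were profiled in 3 libraries, 1 per condition, sequenced on an Ion Proton instrument. The methods name FAST-QC for read quality, TopHat for alignment and MAQ for assembling mapped reads; the submitters' processing notes name GRCh38. The annotation, the counting tool and the use of strand are not given in the sources used here. The authors deposited raw read counts per gene symbol, without normalization, and every column belonged to a mapped library (0 were left out).

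From these counts, library sizes were scaled by TMM (edgeR 4.0.16, R 4.3.3), and folds and exact binomial tests were computed in Python 3.11.15 with scipy 1.17.1. Counts under 3 were raised to 3. Replicate-based fits, the Limma criteria included, need more than 1 library per condition. The p-values measure the difference between libraries, which may be technical. GC content and length came from GENCODE 29 (longest transcript of a symbol), for 89.7% of genes compared for Rg3 and 90.3% for TAM. The 9 members and the 6 lists were chosen with earlier results of these data known. All members are named, and of the lists genes called against the control or under 10 reads, except a few that are not reported here. Patterns similar to a member were not sought, because 3 libraries give no measure of likeness. The steps were tested on simulated counts.

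Alternatives were library totals, size factors from DESeq2 1.42.0, filters of 1 or 50 counts, the fold alone, a negative binomial exact test in edgeR that assumes a variation between cultures (coefficient of variation) of 0.2 or 0.4, removal of a loess trend (span 0.3) on GC content and length, and 0.5 added to each count.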

Additional observations from a re-analysis of the deposited data

How the results depend on the processing

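No paired analysis was possible because only 1 library stands for each condition, and for the same reason no library could be left out. The 18 log2 fold changes of members kept their direction and their side of the threshold with DESeq2's size factors, a filter of 1 count and 0.5 added to each count; 1 gained a call with the fold alone (NRIP1 with TAM), and NRIP1 with TAM could not be compared with a filter of 50 counts. The alternatives that moved results most were an assumed spread between cultures and the removal of the GC and length trend.

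With an assumed variation of 0.2, NCOA2 was the 1 member lower with TAM, 0 members were higher with Rg3 and 0 with TAM, and 0 were higher in TAM against Rg3. Over all genes the calls were then 64 higher and 92 lower with Rg3, 109 and 365 with TAM, and 2156 and 2939 in TAM against Rg3. In the lists, 1 call each was left in coactivators lower, corepressors lower, other receptors higher and estrogen targets higher with TAM and in estrogen targets lower with Rg3, and 0 elsewhere. With 0.4, 0 members and 0 genes of the lists were called; over all genes 1 was lower with Rg3, 1 lower with TAM and 0 in the other directions and in TAM against Rg3.

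With the GC and length trend removed, 0 members were higher in any comparison, and 1 was lower with TAM and 1 in TAM against Rg3. Over all genes 750 were higher and 959 lower with Rg3, 1580 were lower with TAM, and 2456 were higher and 2201 lower in TAM against Rg3. The sign reversed for ESRRA (0.35), NCOA2 (-0.13), NCOA3 (-0.02), NCOR1 (-0.06), CREBBP (0.23), NCOA6 (-0.10), SRA1 (0.10), HDAC2 (-0.06), SIN3A (-0.15), TBL1XR1 (-0.53), GPS2 (0.08), NR3C1 (-0.04), XBP1 (-0.18) and PDK4 (-0.45) with Rg3, for NRIP1 (0.31), SMARCA4 (-0.03), HDAC2 (0.72, then called higher), TBL1XR1 (0.18), NR3C1 (0.09), IGFBP4 (-0.14), IDH3A (0.15) and CYCS (0.11) with TAM, and for ESRRA (-0.25) in TAM against Rg3. With Rg3, coactivators then had 1 higher and 0 lower, corepressors 1 and 0, other receptors 0 and 0, estrogen targets 1 lower and ESRRA targets 0 higher; with TAM, coactivators had 0 higher and 3 lower, corepressors 1 lower, and other receptors 1 higher and 0 lower.

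With library totals, 0 members, 1120 of all genes, 0 coactivators, 0 corepressors and 1 other receptor were higher with TAM, 6 corepressors were lower with TAM, 2687 genes were higher in TAM against Rg3, and with Rg3 7 coactivators and 1 estrogen target were higher and 0 coactivators and 1 corepressor lower; SMARCA4 with TAM reversed (-0.12). With DESeq2's size factors 2 corepressors were higher with TAM. With the fold alone, 2 other receptors were lower and 2 estrogen targets and 1 factor that binds beside ESR1 were higher with Rg3. With a filter of 50 counts, 1 ESRRA target was lower with TAM. The causes were not tested. Depth limits ESR1, ESR2, PGR and ESRRB, which had at most 2 reads, and the intervals of NRIP1 and GPER1.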
